A study of Enchytraeus crypticus with 9 samples.

Results

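The transcripts described here are the probes of *Enchytraeus crypticus*, a small white soil annelid used in ecotoxicity tests, whose level was strongly lowered after exposure to ultraviolet (UV) radiation at both of the doses used. The members were chosen from the measured levels. A probe was a member when its signal was positive and significantly above background on all 9 arrays and well above background, a stricter flag of the scanner software, on all 3 Control arrays, when its highest level on the 6 UV arrays lay below its lowest level on the 3 Control arrays, and when the mean difference from Control was at most -1.5 on the log2 scale at both doses. Of 43750 gene probes, 27935 passed the first filter, 20131 of these also passed the second, 1674 of these were also separated from Control, and 213 met every condition. The direction and the minimum size of the difference from Control were therefore set by the choice, and that comparison is given as a description with no test.

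The total dose over 5 days was 8100 J/m² for UV Dose 2 worms and 7500 J/m² for UV Dose 1 worms, and Control worms were kept without UV radiation. All 3 groups were adults with a developed clitellum, in ISO reconstituted water under laboratory light, and the UV groups were irradiated for a short time each day behind a sheet that removed UVC wavelengths. Each array held RNA from the whole bodies of a pool of 40 worms, with 3 arrays per group, and no strain or clone is given in the sources used here. For the arrays of UV Dose 2, a descriptive label calls the exposure dose 1 but gives 8100 J/m², and their group was taken from title and treatment, which agree.

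UV radiation of these wavelengths is absorbed by DNA bases and joins neighbouring pyrimidines into photoproducts, which stall RNA polymerase on the transcribed strand until they are repaired. In cells of many animals the same radiation also slows transcription more widely and starts stress responses. The level of a transcript in a whole-body extract depends on its synthesis, on its decay and on how many cells hold it, so fewer cells of a type and less RNA per cell cannot be told apart in these data. The probes are named by the contig or single sequencing read they were designed from, and no gene name or function is used for any of them, so the results are ordered by level and size of change, and the whole-body label was not checked against marker genes.

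Levels are log2 processed intensities minus the median of the array, so that 0 is the level of the median probe among the 27935 and each unit is a doubling. The median intensity of these probes was between 44.8 and 62.7 on the 9 arrays, and the number of gene probes with a positive, significant signal was between 29844, on Control replicate 2, and 39849, on Control replicate 3. The arrays lay on 4 slides. One slide carried the 3 UV Dose 2 arrays and UV Dose 1 replicate 1, UV Dose 1 replicates 2 and 3 shared a slide with Control replicate 2, and Control replicates 1 and 3 each had a slide of their own. No slide held both UV Dose 2 and Control, so that slide and treatment cannot be told apart for that dose.

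Over the 213 members, the median difference from Control was -2.10 under UV Dose 2, or 4.28-fold lower, and -2.14 under UV Dose 1, or 4.40-fold lower. Over all 27880 tested probes, which carried no outlier flag, the same medians were 0.14 and 0.09. The falls of the members ran from -5.84 to -1.502 under UV Dose 2 and from -5.02 to -1.51 under UV Dose 1. On measured levels, 102 members were lowered at least 4-fold at both doses, 26 at least 8-fold and 6 at least 16-fold. Where all 3 arrays of a dose measured a member below that stricter flag, its fall has only a bound, and with these at their bounds the numbers were 100, 24 and 4. Members with only some arrays of a dose well above background, 40 under UV Dose 2 and 39 under UV Dose 1, stayed at their measured levels. These counts therefore still rest partly on signals below the flag. The highest of the 6 UV arrays lay below the lowest Control array for 6.3% of all tested probes, and for every member by the choice. A mirrored rule for strong rises at both doses, with a signal well above background on all 6 UV arrays, was met by 118 probes. The first filter can remove probes that rise from near background in Control, and these were not counted, so the 2 numbers are not like for like.

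**Figure D1:**
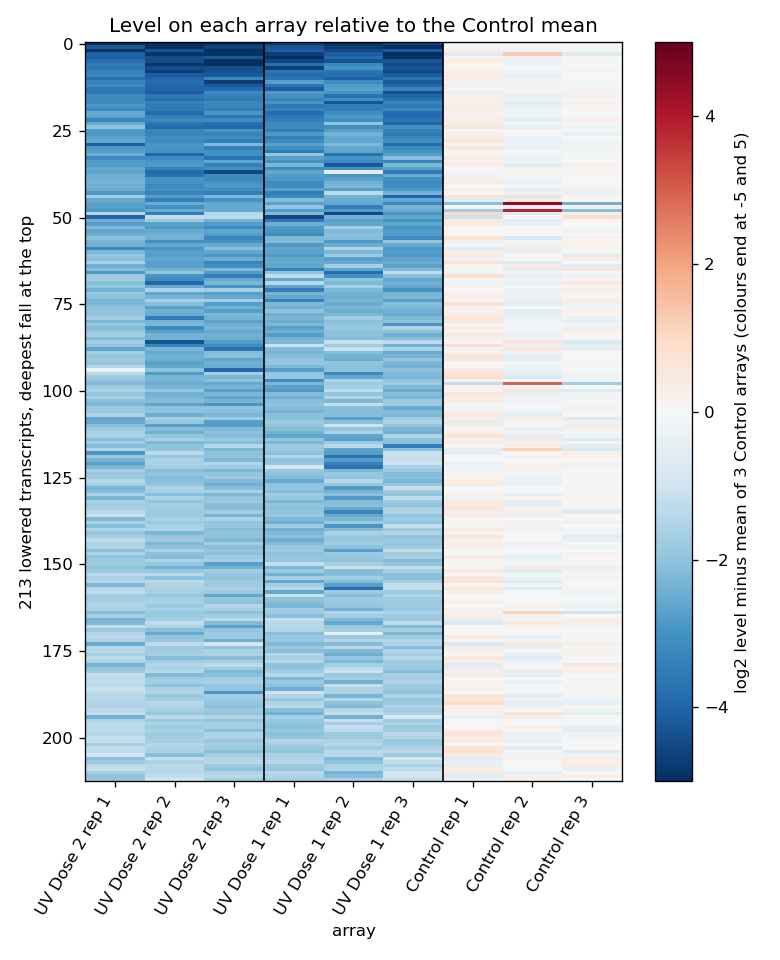
Level of the 213 lowered transcripts (rows, deepest mean fall at the top) on each of the 9 arrays (columns), as the log2 level minus the mean of the 3 Control arrays. The 6 UV columns are blue along their whole length, and 3 rows near the 47th, the 49th and the 99th show a dark Control replicate 2 beside pale blue in the other Control columns.

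The deepest fall was that of contig19694, which was also the third brightest member in Control worms. Its level was 2.99, 2.98 and 3.17 on the UV Dose 2 arrays, 4.12, 3.1 and 4.37 on the UV Dose 1 arrays, and 8.81, 8.96 and 8.88 on the Control arrays. Its UV Dose 2 arrays lay close together and its UV Dose 1 arrays were spread over more than 1 log2 unit, with some overlap between the doses, and every UV array was at least 4.44 below every Control array. It was 57.1-fold lower under UV Dose 2 and 32.5-fold lower under UV Dose 1. In processed intensity, contig19694 gave 363, 417 and 412 under UV Dose 2, 944, 428 and 1060 under UV Dose 1, and 20000, 30500 and 29600 in Control. It stayed well above background on every array, so that neither value is a bound.

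Several of the next members by depth of fall were dim on the UV arrays, though above the median probe in Control. The level of GYUW2K401C5ESY was -3.12, -4.19 and -3.53 under UV Dose 2, -3.24, -3.69 and -4.06 under UV Dose 1, and 0.98, 1.05 and 1.16 in Control. No UV array measured it well above background, so its fall is a bound, at least 17.1-fold under UV Dose 2 and at least 17.6-fold under UV Dose 1, taken against the lowest level well above background on each array where that was higher than its own. The level of contig16792 was -4.62, -3.89 and -5.29 under UV Dose 2, -3.70, -4.06 and -3.71 under UV Dose 1, and 0.75, 0.18 and 0.40 in Control. It too was not well above background on any UV array, with bounds of at least 11.1-fold under UV Dose 2 and at least 11.5-fold under UV Dose 1, and the 2 doses overlapped for both transcripts. GYUW2K401BGVCK had bounds of at least 14.2-fold and at least 14.7-fold in the same order of doses.

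Other members of this depth kept a signal on some or all UV arrays. The level of contig12422 was -2.11, -2.48 and -2.27 under UV Dose 2, -3.10, -1.93 and -2.95 under UV Dose 1, and 2.13, 1.64 and 2.10 in Control, with falls of -4.24 and -4.61. Only 1 of its UV Dose 1 arrays measured it well above background, so the second fall rests partly on signals below the flag. The level of contig02735 was -1.06, -1.90 and -1.84 under UV Dose 2, -2.11, -0.44 and -1.77 under UV Dose 1, and 2.67, 2.55 and 2.42 in Control, with falls of -4.14 and -3.99. In both, UV Dose 1 replicate 2 was the highest UV array, and the Control arrays lay close together. GYUW2K402GFQEG, with a level of 0.73, -0.18 and -0.21 under UV Dose 2, 0.15, 0.23 and -0.16 under UV Dose 1, and 4.39, 3.62 and 3.98 in Control, was well above background on all 9 arrays and was 14.7-fold lower under UV Dose 2 and 15.2-fold lower under UV Dose 1. Of the other 3 of the 10 deepest, contig14888 fell by 4.15 and 3.96, and contig18240, which has a Control spot marked as an outlier, by 4.62 and 4.66, each under UV Dose 2 and then under UV Dose 1. Both were well above background on only 2 arrays of each dose. The fall of contig16478 was at least 12.9-fold under UV Dose 2, where no array measured it well above background, and 14.3-fold under UV Dose 1, where 1 array did.

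**Figure D2:**
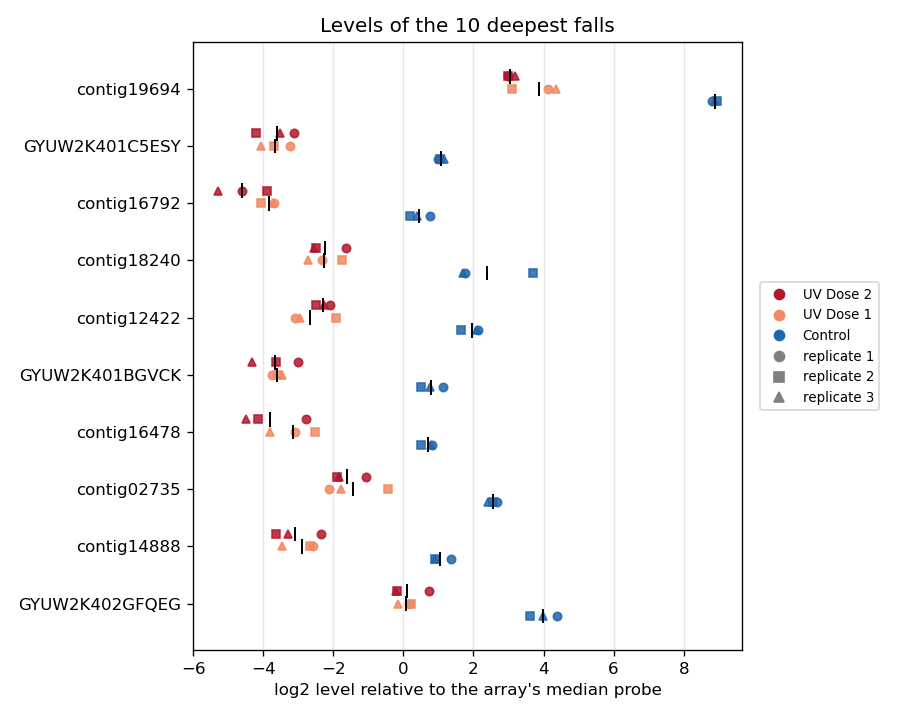
Log2 level on each array of the 10 members with the lowest mean difference from Control, with UV Dose 2 above UV Dose 1 above Control within each row, markers for the replicate and a black bar for the group mean. contig19694 is the only row above 8 in Control, and in every row the Control symbols stand clear to the right of both UV groups.

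Members were found over a wide range of probe signal. The mean Control level of the members ran from -1.62 to 9.96 with a median of 0.99. Members with a Control level from 0 to 2 made up 44.6% of the list and 20.6% of the tested probes, while those below 0 made up 23% of the list and 50.3% of the tested probes, although the condition of a signal well above background in Control removes many dim probes from the list. Above a Control level of 4, the median falls were -1.91 under UV Dose 2 and -1.99 under UV Dose 1 (28 members), and all of these members were well above background on all 6 UV arrays. Below 0 the medians were -2.11 and -2.14 on measured levels (49 members), of which 41 were not well above background on some UV array, so that their falls are limited by the background.

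The 2 brightest members in Control were GYUW2K402GGCE5 and GYUW2K402G8V8Y, a description of probe signal only, since probes differ in how strongly they bind and a brighter probe need not mean a more abundant transcript. The level of GYUW2K402GGCE5 was 7.93, 8.74 and 8.59 under UV Dose 2, 8.47, 7.78 and 9.03 under UV Dose 1, and 9.41, 10.22 and 10.25 in Control. Its UV arrays were mixed between the doses and its lowest Control array was 0.38 above its highest UV array, so the separation from Control was narrow beside the spread within each group. It was 2.91-fold lower under UV Dose 2 and 2.90-fold lower under UV Dose 1. GYUW2K402G8V8Y followed it within 0.18 on every array, and fell 3.0-fold and 3.02-fold.

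Other bright members had a wider gap from Control. The level of contig12446 was 4.50, 4.42 and 4.58 under UV Dose 2, 4.46, 4.18 and 4.61 under UV Dose 1, and 6.78, 5.70 and 6.51 in Control. Its 6 UV arrays lay closer together than its Control arrays, and Control replicate 2 was the lowest of these. The level of contig08881 was 3.25, 4.81 and 4.12 under UV Dose 2, 4.10, 3.43 and 5.05 under UV Dose 1, and 5.71, 6.32 and 6.48 in Control. Here the UV arrays were the more scattered, with both doses over the same range.

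At the dim end the measurement limits the size of the fall. Of the 213 members, 153 were well above background on all 6 UV arrays. Under UV Dose 2, 13 were not well above background on any array, under UV Dose 1 the number was 12, and 6 were so at both doses. With these at their bounds, the median fall came to -2.08 for UV Dose 2 and -2.11 for UV Dose 1. Members with only some arrays of a dose well above background stayed at their measured levels. The dimmest member in Control was GYUW2K402JA8GA, with a level of -3.78, -3.67 and -3.01 under UV Dose 2, -3.44, -3.01 and -5.07 under UV Dose 1, and -1.49, -1.22 and -2.13 in Control. Its fall under UV Dose 1 was at least 2.70-fold. GYUW2K402IWSUB had a level of -1.80, -3.51 and -5.39 under UV Dose 2, -4.19, -3.52 and -3.50 under UV Dose 1, and -1.04, -1.75 and -1.56 in Control, so that UV Dose 2 replicate 1 came within 0.05 of Control replicate 2.

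The first filter also removed transcripts of the deepest kind. A further 48 probes were well above background on all 3 Control arrays and lacked a positive, significant signal on at least 1 UV array. Of these, 32 met the rest of the rule on their measured levels. GYUW2K402ILYQW, with a mean Control level of 1.37 and a positive signal on 4 of the 6 UV arrays, had measured differences of -6.12 under UV Dose 2 and -5.71 under UV Dose 1, and contig17185, with a Control level of 1.45 and a positive signal on 3 UV arrays, had -5.75 and -5.91. These differences rest on UV signals that were not significantly above background on 2 arrays for GYUW2K402ILYQW and on 3 for contig17185. None of the 48 lacked a positive signal on all 6 UV arrays.

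The threshold cut through a continuous range. Just inside it were contig06309, with -1.502 under UV Dose 2 and -1.76 under UV Dose 1, contig22344, with -1.51 and -1.65, and, on measured levels, GYUW2K401EABV8, with -1.53 and -1.505. No UV Dose 1 array measured the last well above background, and its bound there, at least 2.76-fold (-1.46), does not reach the threshold. Just outside it, and meeting every other condition, were contig11891, with -1.498 under UV Dose 2 and -1.67 under UV Dose 1, contig11200, with -1.60 and -1.498, and GYUW2K402HDJR8, with -1.497 and -1.51. In all, 1461 probes met the other conditions without passing the threshold at both doses, of which 23 passed it only at the higher dose and 98 only at the lower dose.

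The rule did not use the difference between the doses, and this was tested with limma over all 27880 tested probes, which included 210 of the members. The median UV Dose 2 minus UV Dose 1 was 0.04 over the members and 0.07 over all tested probes. None of the 210 members passed an adjusted p of 0.05 (limma, Benjamini-Hochberg), against 0 (0%) of all tested probes, and the smallest adjusted p was 1 among the members and 0.183 among all. At an unadjusted p under 0.05 there were 10 members (4.76%), 6 lower and 4 higher under UV Dose 2, beside 3.32% of all tested probes, and the methods' t-test on the 6 UV arrays called none of the members either. Of the 213, 184 differed by less than 0.5 between the doses and 7 by more than 1. The 95% interval of a single difference reached 0.69 to either side at the median (0.37 to 2.30 over the members), so differences of this size between the doses could not be detected for most of them.

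The order of the arrays was counted as well. All UV Dose 2 arrays lay below all UV Dose 1 arrays for 7 members (3.29%), while 3.08% of all tested probes did so. All UV Dose 2 arrays lay above all UV Dose 1 arrays for 8 members (3.76%), while 8.65% of all tested probes did so. Of the 7, 3 had a dose without any array well above background, and the other 4 differed by -0.98 to -0.20. Of the 8, 1 was in this position, and the other 7 differed by 0.24 to 0.89. The split between these directions moved with the scaling, to 10 below and 5 above under SVCD normalization, 9 and 5 with the 75th percentile, 15 and 1 with the spike-in transcripts, 13 and 3 without normalization and 5 and 10 under normexp. The median dose difference of all tested probes moved too, to -0.08 with the spike-in transcripts and 0.03 under normexp. Their shares in each order were not counted under these scalings, so the splits are not read as a trait of the members. Within the slide that held both doses, the members' median of the UV Dose 2 arrays minus UV Dose 1 replicate 1 was 0.06, and that of all tested probes was 0.08.

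**Figure D3:**
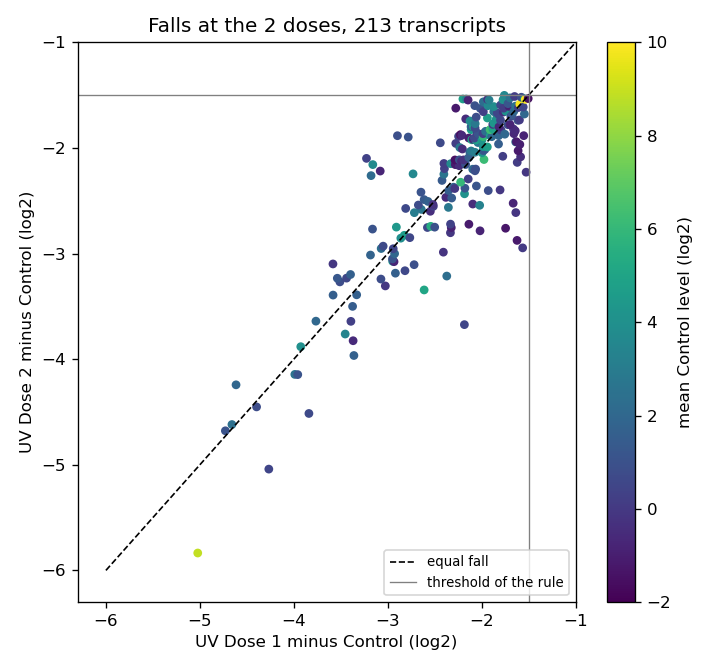
Mean difference from Control under UV Dose 2 (vertical, log2) against that under UV Dose 1 (horizontal, log2) for each of the 213 members, coloured by the mean Control level. Both axes use the same Control arrays, the grey lines are the threshold of -1.5, and the points lie about the dashed line of equal falls, with contig19694 at -5.84 and -5.02 at the lower left.

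Single arrays stood apart in several of the members with the largest dose differences. The level of contig19981 was -2.13, -3.36 and -4.04 under UV Dose 2, -2.12, 0.05 and -3.0 under UV Dose 1, and 0.36, 0.59 and 0.53 in Control. It was well above background on only 1 UV Dose 2 array and 2 UV Dose 1 arrays. Its UV Dose 1 replicate 2 stood apart, close to Control, and the doses overlapped, with a difference of -1.49 ± 0.73 (SE, limma adjusted p = 1). For contig08281 the level was -1.63, -4.24 and -2.71 under UV Dose 2, -2.17, -1.02 and -1.24 under UV Dose 1, and 0.15, 0.77 and -0.66 in Control. This probe was well above background on 2 UV Dose 2 arrays and on all UV Dose 1 arrays. UV Dose 2 replicate 2 was the low array there, and the difference was -1.38 ± 0.65 (SE, limma adjusted p = 1). GYUW2K401ESA98 had -3.76, -3.44 and -4.90 under UV Dose 2, -3.33, -2.29 and -2.73 under UV Dose 1, and -1.35, -0.51 and -1.61 in Control, and no arrays of the 2 doses overlapped. None of its UV Dose 2 arrays and only 1 of its UV Dose 1 arrays was well above background, and its difference between the doses, -1.25 on measured levels, was 0.0059 under normexp background correction.

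Larger falls under UV Dose 1 were led by contig27027. Its level was -0.99, -3.09 and -1.06 under UV Dose 2, -1.82, -4.17 and -2.53 under UV Dose 1, and 1.34, -0.26 and 0.08 in Control, a difference between the doses of 1.13 ± 0.75 (SE, limma adjusted p = 1). Replicate 2 was the lowest array of each group, and only 2 arrays of each UV dose measured contig27027 well above background. GYUW2K401EARJK had -1.502, -0.66 and -0.86 under UV Dose 2, -2.58, -1.37 and -2.11 under UV Dose 1, and 0.87, 0.58 and 1.19 in Control, a difference of 1.01 ± 0.35 (SE, limma adjusted p = 1), with 1 array of each dose overlapping. contig15356 differed by 1.00 ± 0.86 (SE, limma adjusted p = 1), with replicate 1 the lowest array in all 3 groups at -0.27 under UV Dose 2, -0.79 under UV Dose 1 and 2.68 in Control.

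Among the replicates, certain arrays were high or low for many members at once. UV Dose 2 replicate 1 was the highest of the 6 UV arrays for 83 members (39.0%), against 23.3% of all tested probes, and UV Dose 2 replicate 3 was the highest for only 8 (3.76%), against 19.7%. Control replicate 2 was the lowest Control array for 116 members (54.5%), against 49.1% of all tested probes. Within the UV groups the members were also more scattered than the tested probes, with a median SD of 0.34 under UV Dose 2 and 0.37 under UV Dose 1 for the members, beside 0.25 and 0.28 for all tested probes. In Control the medians were 0.34 and 0.37 for members and tested probes, but the condition of no overlap with the UV arrays favours a small spread there. The scanner software's own error was 12.8% of the signal at the median over the members' UV spots and 10.2% over their Control spots, beside 10.5% and 10.9% for all tested probes. The part of this error in the wider scatter of the members was not tested.

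These deviations were shared by subsets of the members. Each member's levels were centred on the mean of each group of arrays, and the members were then grouped by the correlation of these deviations across the 9 arrays, a description chosen after the values were seen. It gave 37 groups. One group of 18 included the deepest fall and several of the brightest members, contig19694, contig08881, GYUW2K402GGCE5 and GYUW2K402G8V8Y, with a median Control level of 4.56. Its median deviation was -0.35, 0.30 and 0.09 on the UV Dose 2 arrays, 0.10, -0.81 and 0.73 on the UV Dose 1 arrays, and -0.11, 0.06 and 0.07 on the Control arrays. UV Dose 1 replicate 2 was thus low and UV Dose 1 replicate 3 high. In 17 of the 18 they were the lowest and the highest of that dose, a count that follows largely from the grouping. The correlation with the mean profile of this group was at least 0.8 for 7.98% of the members, nearly all of them in the group itself, and for 0.89% of all tested probes.

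Another group, of 29, ran the other way on the same arrays. It included contig12422, contig02735 and contig16478 of the deepest falls, and its median falls were -2.75 under UV Dose 2 and -2.50 under UV Dose 1. Its median deviation was 0.46, -0.18 and -0.26 on the UV Dose 2 arrays, -0.28, 0.55 and -0.29 on the UV Dose 1 arrays, and 0.27, -0.14 and -0.10 on the Control arrays. UV Dose 2 replicate 1 and UV Dose 1 replicate 2 were the highest arrays of their groups in all 29, which also follows largely from the grouping. A correlation of at least 0.8 with its mean profile was found for 16.9% of the members, which include those the profile was made from, and 4.39% of all tested probes. Further groups, of 19, 18 and 16 members, had such shares of 11.7%, 12.7% and 11.7% of the members. Among all tested probes the shares for these groups were 7.74%, 7.39% and 6.45%.

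**Figure D4:**
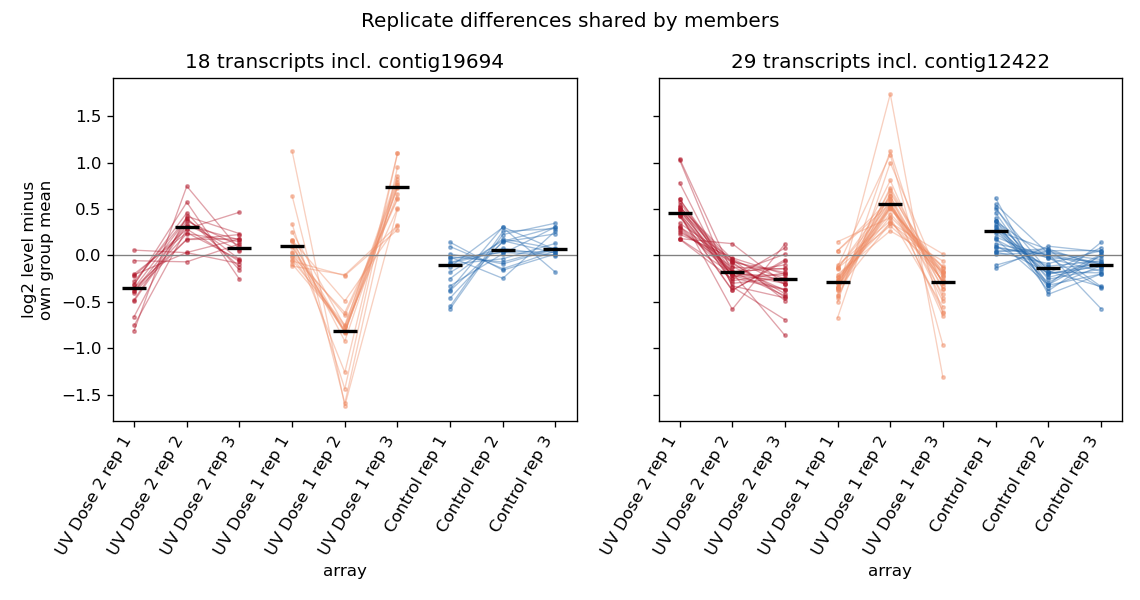
Deviation of each array from the mean of its own group (log2, vertical) for the 18 members grouped with contig19694 (left) and the 29 grouped with contig12422 (right), with a thin line per member within each group of arrays and a black bar for the median. On UV Dose 1 replicate 2 the median is -0.81 on the left and 0.55 on the right.

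Some members rested on a single Control spot, and they were singled out after their values were seen. For contig08367 the level was -2.01, -1.83 and -1.89 under UV Dose 2, -2.02, -1.87 and -2.55 under UV Dose 1, and -1.41, 5.13 and -1.74 in Control. Control replicate 2 was 6.71 above the mean of the other two Control arrays, and without it the falls were -0.34 under UV Dose 2 and -0.57 under UV Dose 1. For GYUW2K402IYD67 the level was 0.21, 0.60 and 0.54 under UV Dose 2, 0.28, 0.22 and 0.54 under UV Dose 1, and 1.33, 6.92 and 0.93 in Control, and without Control replicate 2 the falls were -0.68 and -0.79. For contig11015 it was -1.34, -1.62 and -1.67 under UV Dose 2, -1.37, -0.94 and -0.91 under UV Dose 1, and -0.34, 3.79 and -0.88 in Control, and without that array the falls were -0.94 and -0.46. These 3 transcripts thus met the rule through 1 array. The spots of contig08367 (row 459, column 21) and GYUW2K402IYD67 (row 458, column 20) are neighbours on the array. Whether their high values on Control replicate 2 are independent was not tested.

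The scanner software had marked an outlier spot for 3 of the 213 members, contig08367, GYUW2K402IYD67 and contig18240, in each case on Control replicate 2 and on no other array, and these 3 were not tested between the doses. For contig18240 the level was -1.65, -2.49 and -2.55 under UV Dose 2, -2.33, -1.76 and -2.72 under UV Dose 1, and 1.75, 3.70 and 1.71 in Control. Without Control replicate 2 its falls were still -3.96 under UV Dose 2 and -4.0 under UV Dose 1. On unchanged levels, leaving Control replicate 2 out of the Control mean left 17 members that no longer met the threshold of -1.5 at both doses. The number was 26 without Control replicate 1 and 12 without Control replicate 3.

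**Figure D5:**
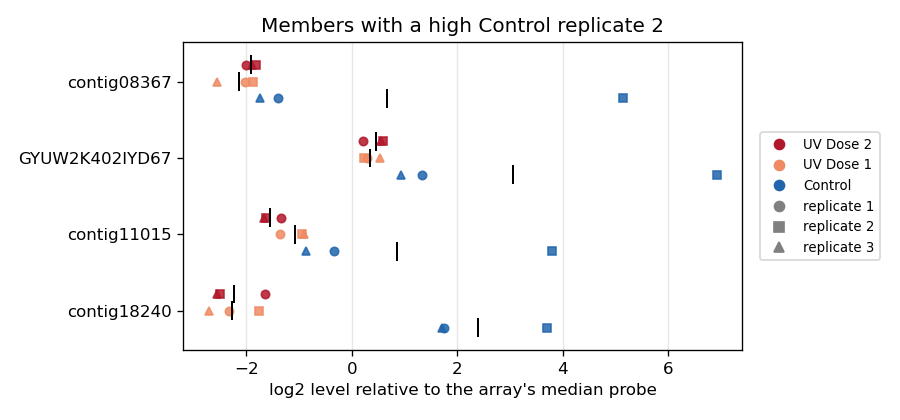
Log2 level on each array for 4 members with a high Control replicate 2 (blue square), with UV Dose 2 above UV Dose 1 above Control in each row and a black bar for the group mean. In the upper 3 rows the other Control arrays lie close to the UV arrays, and in contig18240 all Control arrays lie at least 3.36 above it.

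Features that the rule did not use were compared between the members and the rest of the array as a description. Contigs made up 54.0% of the members and 50.5% of the tested probes, and the rest were single reads. The median falls were -2.03 under UV Dose 2 and -2.12 under UV Dose 1 for the 115 contigs, and -2.14 and -2.14 for the 98 reads. By position on the array, 30.0% of the members lay at the lower right and 19.7% at the upper left when the array is split at the middle row and column, where the tested probes had 24.3% and 25.6%. Among contigs with consecutive numbers, 2 pairs were both members, contig02198 with contig02199 and contig02734 with contig02735. The pair contig02734 and contig02735 fell by 3.97 and 4.14 under UV Dose 2 and by 3.36 and 3.99 under UV Dose 1. The next by number, contig02733, failed the first filter but met the rest of the rule, with -2.56 under UV Dose 2 and -1.76 under UV Dose 1. The 123 neighbours by number that were not members had a median difference from Control of 0.14 under UV Dose 2 and -0.02 under UV Dose 1, close to the median of all tested probes. Of these neighbours, 35.8% were lower at both doses and 9.76% were separated below Control, beside 31.1% and 6.3% of all tested probes.

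Of 22578 pairs of members, 3 stayed within 0.2 of each other on all 9 arrays. The closest was GYUW2K401AS4DP with GYUW2K402JMEIJ, which differed by at most 0.08. The level of GYUW2K401AS4DP was 2.35, 2.93 and 2.98 under UV Dose 2, 2.35, 2.25 and 2.78 under UV Dose 1, and 4.54, 4.48 and 4.63 in Control, with falls of -1.80 and -2.09. GYUW2K402GWIHY with GYUW2K401BQI7J differed by at most 0.17, and GYUW2K402G8V8Y with GYUW2K402GGCE5 by at most 0.18. Probe sequences were not used here, so it was not tested whether the probes of a pair measure the same transcript, and 213 probes need not be 213 genes.

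The number of members depended on the scale of the levels. All 213 met the rule under SVCD, MedianCD and Quantile normalization, with 274, 410 and 238 probes meeting it in all. Under MedianCD normalization the median of all tested probes moved to -0.22 under UV Dose 2 and -0.28 under UV Dose 1, and the members' medians moved with it to -2.46 and -2.50. Under normexp background correction with an offset of 50, which is added to every spot and lies near the median intensity, 55 probes met the rule, 53 of them members, and the members' median falls were -1.04 under UV Dose 2 and -1.05 under UV Dose 1. Within the slide that held UV Dose 1 replicates 2 and 3 and Control replicate 2, the median fall was -1.95, and 190 of the 213 were at or below -1.5.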

How the data were processed

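Whole-body RNA of 9 pools of *E. crypticus* was measured on single-colour arrays. The authors scanned them and obtained spot values with the software Agilent Feature Extraction (version 10.7.3.1, per the file headers). The deposited intensities are linear, background-subtracted and not normalized between arrays, and a deposited series-wide table gives these intensities rounded. Intensities were taken as log2 and centred on each array's median over the 27935 probes with a positive, significant signal on all 9 arrays (Median normalization). Differences between doses were fitted with limma 3.58.1 in R 4.3.3 on all 9 arrays, two-sided, with Benjamini-Hochberg adjustment over 27880 probes. The 55 probes with an outlier flag were left out of the test. Per the methods the pools were biological replicates made up from separate wells, with 3 pools per group, and this number limits the precision. The main fit had no slide term, so its p values measure the spread between pools together with any difference between slides. The UV Dose 2 pools shared a slide and add no spread between slides, while UV Dose 1 and Control each lay on more than 1. In the alternative fit with a random slide effect, the consensus correlation within a slide was 0.35. The script for the rule and the fit was tested on simulated data.

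The members and the lists were chosen with earlier results of these data known. Named members were the 10 deepest falls, the 5 brightest and the 3 dimmest in Control, the 3 largest dose differences each way, the 3 on either side of the threshold and the closest pairs. Where no array of a group measured a probe well above background, its fold is against the lowest level well above background on each array, or its own level where that was higher. Some probes above that lowest level still lacked the flag. Such a bound can therefore equal the measured fall, and it is not a guaranteed minimum. The intended gene lists were not used, since probes are named by contig or read identifiers. The planned normexp correction was run on the median spot signal. Alternatives were other normalizations, SVCD and MedianCD among them with the R code of the study, signal filters, blocks and single arrays left out.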

Additional observations from a re-analysis of the deposited data

How the results depend on the processing

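The members' median falls and those of the named probes kept their direction under every alternative that gives them. The rule had placed every UV array of these probes below every Control array. When single arrays are left out, or within the shared slide, the kept direction therefore follows largely from the choice and says little about stability. Under every alternative that tested the doses, 0 members were called between them (4 to 17 at an unadjusted p under 0.05). The number of members was 410 under MedianCD normalization and 55 under normexp, and otherwise 157 to 302. Leaving out single arrays gave 199 to 272, and 147 of the 213 met the rule under all 9 omissions. The median fall under UV Dose 2 was -2.27 under SVCD normalization, -2.46 under MedianCD, -2.31 without normalization and -1.04 under normexp. Under UV Dose 1 it was -2.50 under MedianCD, -1.05 under normexp and -1.95 within the shared slide. Leaving out single arrays moved these medians to between -2.23 and -2.02 under UV Dose 2 and between -2.23 and -2.07 under UV Dose 1, and the median difference between the doses to between -0.06 and 0.10. Over the other alternatives that difference lay between -0.12, with the spike-in transcripts, and 0.12, without the signal filter. The members whose doses did not overlap numbered 15, 26 without the signal filter and 7 when every array had to be well above background, and 15 to 51 with single arrays left out, since fewer arrays overlap less. The same share over all tested probes was not counted under these alternatives. Under normexp the dose difference of GYUW2K401ESA98 changed sign, to 0.0059. Of 1474 values of named probes under alternatives, 1417 stayed within the spread of replicates or, for dose differences, stayed uncalled with the same sign. The 56 that moved did so under MedianCD normalization or normexp. With 1 of 3 arrays left out, a group mean can hardly move beyond that spread. For those 9 settings the count therefore says little about stability.

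Deviations of arrays with the same replicate number correlated by 0.03, 0.09 and 0.19 between the doses, not all over 0.1, so the numbers were not taken to pair the groups tested. With Control the 6 such values were 0.12 to 0.56, and arrays with different numbers gave -0.45 to 0.34. With the replicate block 0 members were called (limma, smallest adjusted p = 0.61), and the slide as a fixed or a random block also called 0 members. Over all tested probes the slide as a fixed block called 2, and limma with a trended and robust prior for the variance called 6. The replicate block and the slide as a random block called 0 of them. Dim UV signals limit the depth of a fall to a bound, and slide and treatment cannot be told apart for UV Dose 2.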
